A study of Mus musculus with 6 samples.

Results

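The miR-99/100 and miR-125 families were examined in small RNA counts from the nucleus accumbens (NAc), a striatal region of the reward circuit, of mice trained with morphine or saline in conditioned place preference (CPP). The members were taken by name from the first column of the count table. They are the 5p arms of miR-99a, miR-99b, miR-100, miR-125a and miR-125b and 5 of the 3p arms of the same hairpins. All 10 were listed among the 1364 miRNAs of the table, and all 10 had counts.

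Both groups were adult male C57BL/6N mice, 7 to 8 weeks old at purchase. In the morphine group, mice received morphine (10 mg/kg, i.p.) in one daily session and saline in the other over 6 days of conditioning, and in the saline group saline alone. The CPP test followed on day 7, and the NAc was dissected 0.5 h later. There were 3 libraries per group. The series records describe 6 mice, thus 2 per library, for each group, while a legend of the study names a single mouse per library. Core and shell were not separated.

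A miRNA is cut from a hairpin with a 5p and a 3p arm, of which usually only the guide strand stays bound to Argonaute and pairs with target mRNAs through its seed, bases 2 to 8. miR-125 is the mammalian counterpart of lin-4, the founding miRNA, and is abundant in brain, where miR-125b is known to act on dendritic spines and NMDA receptor subunits. The miR-99/100 guides are known repressors of mTOR and of the IGF1 receptor. In the genome each miR-99/100 hairpin lies in a row with a let-7 and a miR-125 hairpin, an arrangement that is conserved in animals.

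The sequences of the 5 guide strands are shown because they separate the members into their seed families and show how few bases tell the members of a family apart. Capitals mark the seed.
mmu-miR-99a-5p: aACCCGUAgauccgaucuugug
mmu-miR-100-5p: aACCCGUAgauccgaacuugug
mmu-miR-99b-5p: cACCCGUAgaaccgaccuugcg
mmu-miR-125b-5p: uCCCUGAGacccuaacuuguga
mmu-miR-125a-5p: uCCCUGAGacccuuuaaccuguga

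Counted from 1 at the 5′ end, miR-99a-5p and miR-100-5p differ by the single substitution U16A. From miR-99a-5p to miR-99b-5p there are 4 substitutions, A1C, U11A, U16C and U21C. miR-125b-5p and miR-125a-5p are 3 edits apart and have 22 and 24 bases. Of the 1089 miRNAs of the table that have a RefSeq sequence, 3 carry the miR-99/100 seed, and all 3 are members. The miR-125 seed is carried by 3 as well, of which miR-351-5p is the one that is no member. How reads that match more than 1 miRNA were counted is not given in the sources used here, so the split between miR-99a-5p and miR-100-5p rests on 1 base and is uncertain to that extent. No member had the same counts as another miRNA of the table in all 6 libraries.

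The 3p arms report on single hairpins. miR-99a-3p and miR-99b-3p share a seed and are 4 edits apart, while the miR-125 3p arms are 4 or 5 edits apart and differ in seed. miR-125b-5p comes from hairpins on both chromosome 9 and chromosome 16, and only the 3p arms tell them apart.
mmu-miR-99a-3p: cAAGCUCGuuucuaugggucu
mmu-miR-99b-3p: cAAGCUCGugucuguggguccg
mmu-miR-125b-1-3p: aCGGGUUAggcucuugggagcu
mmu-miR-125b-2-3p: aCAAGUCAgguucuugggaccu
mmu-miR-125a-3p: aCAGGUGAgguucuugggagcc

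All sequences are RefSeq entries for GRCm38.p6, and positions below are those of hairpin genes in GENCODE vM21 (GRCm38), not coordinates of the count table. On chromosome 16, Mir99a, Mirlet7c-1 and Mir125b-2 lie on the plus strand between 77598936 and 77646343, in introns of the long non-coding host gene Mir99ahg. The Mir125b-2 hairpin also overlaps an exon of C130023A14Rik, and Mir99a lies in an intron of Gm11146, which is on the opposite strand. Mir99a and Mirlet7c-1 are 656 bases apart, and 46522 bases separate Mirlet7c-1 from Mir125b-2. On chromosome 9, Mir100, Mirlet7a-2 and Mir125b-1 lie on the plus strand between 41531425 and 41582002, in introns of the non-coding genes 3110039I08Rik and Gm49317. The hairpin of Mir125b-1 also overlaps an exon of Gm28119, and that of Mir100 overlaps an exon of Gm48742 on the opposite strand. On chromosome 17, Mir99b, Mirlet7e and Mir125a lie on the plus strand between 17830188 and 17830879, a span of only 692 bases. Mir99b is in an intron of Spaca6, a protein-coding gene, and Mir125a overlaps one of its exons.

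The libraries held 4183333 to 9842050 miRNA counts, so that 3 counts correspond to between 0.315 and 0.549 CPM (counts scaled to 1000000 of the TMM-adjusted library total, the scale of all levels below). These limits cover counting error only. Saline replicate 2 stood apart, with Spearman's correlations of 0.869 and 0.874 with the other saline libraries against 0.907 to 0.926 with the morphine libraries, over 899 miRNAs. The log2FC values of the members and the ratios below are therefore given with and without it where it moved them. In a table supplied with the study, miR-99a-5p, miR-99b-5p, miR-125a-5p, miR-125b-5p and miR-125b-2-3p have other counts in these libraries than in the deposited table. The reason is not given in the sources used here, and all values below are from the deposited counts. As a check of the tissue, 5 miRNAs of brain and neurons summed to 127656 to 272558 CPM in the saline libraries and 177274 to 205599 CPM in the morphine libraries, and none was at 0 in any library. Within that list, however, miR-124-3p was lower in the morphine group (log2FC, the log2 of morphine over saline, of -1.88, adjusted p = 0.0195 by edgeR). Of 27 markers in 9 lists, 5 met the criteria given below in the higher direction and 5 in the lower, and the members of a list often differed. In the endothelial list, which summed to 1485 to 5002 CPM against 10984 to 16264 CPM, miR-126a-3p was at a log2FC of 2.42 and met the criteria, while miR-126a-5p was at -0.96 and did not. The red blood cell list summed to 208 to 311 against 358 to 571 CPM, with miR-451a at 1.57 the only one of 3 to meet the criteria and miR-144-3p and miR-486a-5p at -1.31 and -0.20. The epithelium and choroid plexus list summed to 1257 to 2583 against 677 to 828 CPM. There miR-204-5p met the criteria as lower (-1.50) but miR-200a-3p (2.57) and miR-200b-3p (1.84) as higher. Morphine replicate 1 held most counts of the latter 2, with 1114 of miR-200a-3p against 75 and 142 in morphine replicates 2 and 3. For miR-200b-3p these were 676 against 84 and 109, and for both the groups overlapped. The oligodendrocyte sums overlapped at 1820 to 1903 against 1572 to 1963 CPM, although miR-219a-5p was lower at -3.69 (adjusted p = 0.0376 by edgeR). Its counts were 15, 426 and 23 in saline replicates 1, 2 and 3 and 36, 5 and 3 in the morphine replicates. Saline replicate 2 thus held most of them, and the groups overlapped. For smooth muscle and fibroblasts the sums were 7152 to 18957.5 against 5749 to 13824 CPM with 1 of 4 markers higher, and for skeletal muscle 72.4 to 970.3 against 444 to 554 CPM with 1 of 3 lower. The liver marker miR-122-5p was lower at 7.95 to 56.4 against 5.18 to 5.75 CPM, and the myeloid sums were 3.67 to 9.15 against 2.83 to 9.74 CPM with 0 of 2 called. The part of these markers in the results was not tested, and in bulk tissue fewer cells of a type and less RNA per cell cannot be told apart.

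The comparison asked which members differed in level between morphine- and saline-trained mice. In the morphine group, miR-99a-5p was 5.0-fold higher, while miR-99b-5p, miR-125a-5p, miR-125b-5p and miR-125b-2-3p were 3.16- to 3.78-fold lower. miR-100-5p, which differs from miR-99a-5p by 1 base, was not called in either direction. By the criteria of the study for a DEmiRNA, with |log2FC| no smaller than 0.58 and p, before adjustment, no larger than 0.05 by edgeR, 1 of the 10 members was higher and 6 were lower. Over all miRNAs tested, 9.68% were called higher and 9.68% lower. At a Benjamini-Hochberg adjusted p under 0.05 over all miRNAs, 1 member was higher and 3 were lower, against 3.08% and 2.13% of all miRNAs. The normalized levels of the groups did not overlap for 1 member that was higher and 6 that were lower, against 12.2% and 9.90% of all miRNAs. The median log2FC was -1.56 over the 10 members and -0.15 over all miRNAs. All 5 guides were abundant, and among the 88 miRNAs with a mean of at least 1000 CPM, 15 met the criteria as higher and 21 as lower.

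The adjusted calls depended on single libraries, whereas the criteria were less affected. The count of 4 stood against 5.21% of all miRNAs called in either direction. It was 8 without saline replicate 2, where 29.1% of all miRNAs were called, 2 without saline replicate 1 (6.99%) and 3 without saline replicate 3 (4.88%). Without morphine replicate 1 there were 0 in edgeR's test, as over all 1321 miRNAs tested, although 7 members and 176 miRNAs in all met the criteria with their unadjusted p. There was 1 without morphine replicate 2 (2.77%), 1 without morphine replicate 3 (4.02%) and 1 when miRNAs with fewer than 10 counts in total were removed before the test (3.11%).

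**Figure D1:**
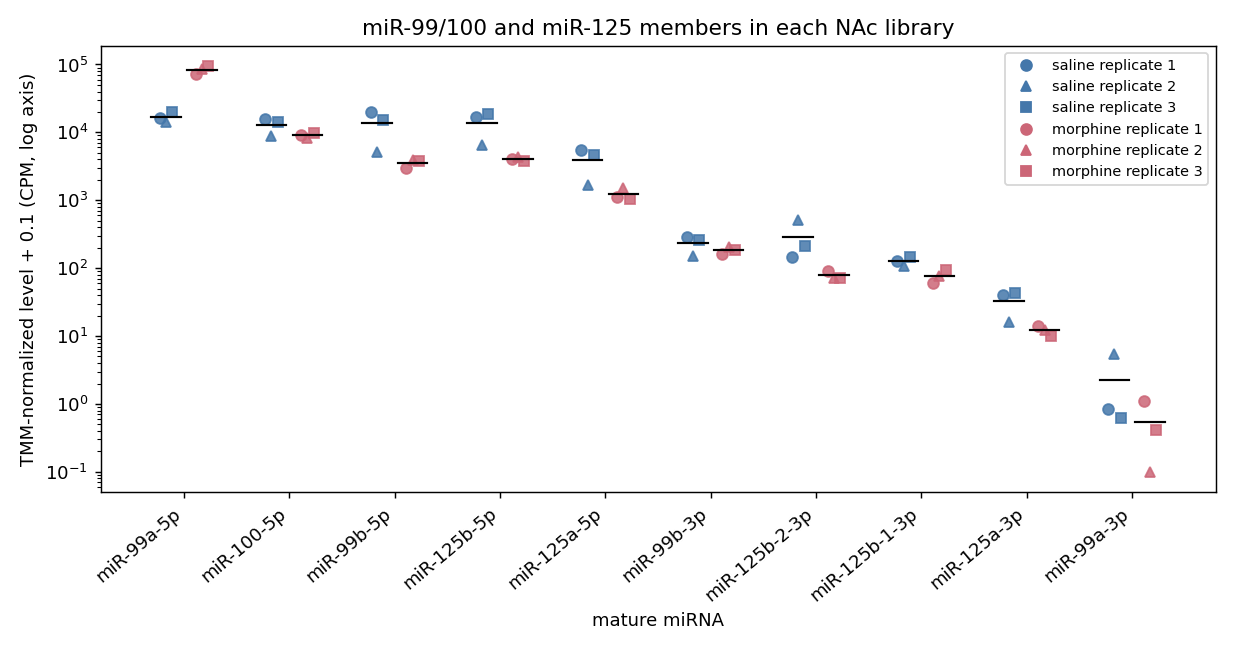
TMM-normalized level of each member (CPM with 0.1 added, log axis) in each of the 6 libraries, with saline in blue, morphine in red, the replicate number as the marker shape and the group mean as a bar. All 3 morphine libraries lie above the saline libraries for miR-99a-5p and below them for miR-99b-5p, miR-125a-5p, miR-125b-5p, miR-125b-2-3p, miR-125b-1-3p and miR-125a-3p, and saline replicate 2 is the saline library nearest the morphine libraries for the lower guides.

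Of the miR-99/100 guides, miR-99a-5p had 90363, 95712 and 187683 counts in saline replicates 1, 2 and 3 and 652734, 588041 and 600678 counts in morphine replicates 1, 2 and 3. Normalized, these were 16539.8, 14354 and 19684 CPM against 72209, 86159.7 and 94325 CPM. Each morphine library was thus above every saline library, including saline replicate 2. The mean rose from 16859.6 ± 2679 to 84231 ± 11183 CPM (SD, n = 3 each). The log2FC of miR-99a-5p by edgeR was 2.32 ± 0.47 (SE), and its Benjamini-Hochberg adjusted p over all miRNAs was 0.00441. Without saline replicate 2 the log2FC was 2.22, and without morphine replicate 1 it was 2.52 with an adjusted p of 0.080. By raw counts, miR-99a-5p ranked 10th to 17th among all miRNAs in the saline libraries and 4th or 5th in the morphine libraries.

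miR-100-5p, the guide from chromosome 9, was at 16004, 8794 and 14178 CPM in saline replicates 1, 2 and 3 and at 9183, 8139 and 9784 CPM in the morphine replicates. The groups overlapped at saline replicate 2, which was below 2 of the morphine libraries. The means were 12992 ± 3748 CPM and 9035 ± 833 CPM (SD, n = 3 each). The log2FC was -0.52 with a 95% interval from -1.45 to 0.41 (adjusted p = 0.552), an interval that reaches from a decrease to an increase. Without saline replicate 2 it was -0.74, with an adjusted p of 0.00524.

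miR-99b-5p, the guide from chromosome 17, was at 20280.2, 5093 and 15331 CPM in saline replicates 1, 2 and 3 and at 2975, 3952 and 3844 CPM in the morphine replicates. It was lower in every morphine library, with saline replicate 2 closest. The mean fell from 13568 ± 7745 CPM to 3590.2 ± 535 CPM (SD, n = 3 each), a log2FC of -1.92 (SE 0.51, adjusted p = 0.0331, edgeR). The log2FC was -2.31 without saline replicate 2 and -1.41 without saline replicate 1, where the adjusted p was 0.10. The adjusted p was 0.324, 0.117 and 0.0841 without morphine replicates 1, 2 and 3.

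Of the miR-125 guides, miR-125b-5p was at 16789.8, 6449 and 18340.4 CPM in saline replicates 1, 2 and 3 and at 4032, 4398 and 3771 CPM in the morphine replicates. Again the groups did not overlap, and saline replicate 2 lay between them. The mean fell from 13859.8 ± 6464 CPM to 4067 ± 315 CPM (SD, n = 3 each), with a log2FC of -1.77 (SE 0.49, adjusted p = 0.0365, edgeR). It was -2.11 when saline replicate 2 was left out. Its adjusted p was between 0.0683 and 0.301 when any other library was left out, at log2FC values of -1.45 to -1.80.

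miR-125a-5p, which shares the seed of miR-125b-5p, was at 5426, 1659 and 4715 CPM in saline replicates 1, 2 and 3 and at 1131, 1537 and 1060.4 CPM in the morphine replicates. The margin between saline replicate 2 and morphine replicate 2 was small. On the share of raw counts it closed, with 0.133% in saline replicate 2 and 0.144% in morphine replicate 2. The log2FC was -1.66 (SE 0.50) and met the criteria, with an adjusted p of 0.0507 in edgeR's test. Leaving out saline replicate 2 gave -2.03.

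In the saline group the order of the guides by mean was miR-99a-5p, miR-125b-5p, miR-99b-5p and miR-100-5p, at 16859.6, 13859.8, 13568 and 12992 CPM. The ranges of their saline libraries overlapped, and miR-125a-5p followed at 3933 ± 2002 CPM. In the morphine group miR-99a-5p and miR-100-5p led, and miR-125b-5p and miR-99b-5p, at 4067 and 3590.2 CPM, had overlapping libraries. Counts of mature miRNAs carry no length term, since 1 read covers the whole molecule, but they also depend on how well a sequence is ligated and amplified.

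**Figure D2:**
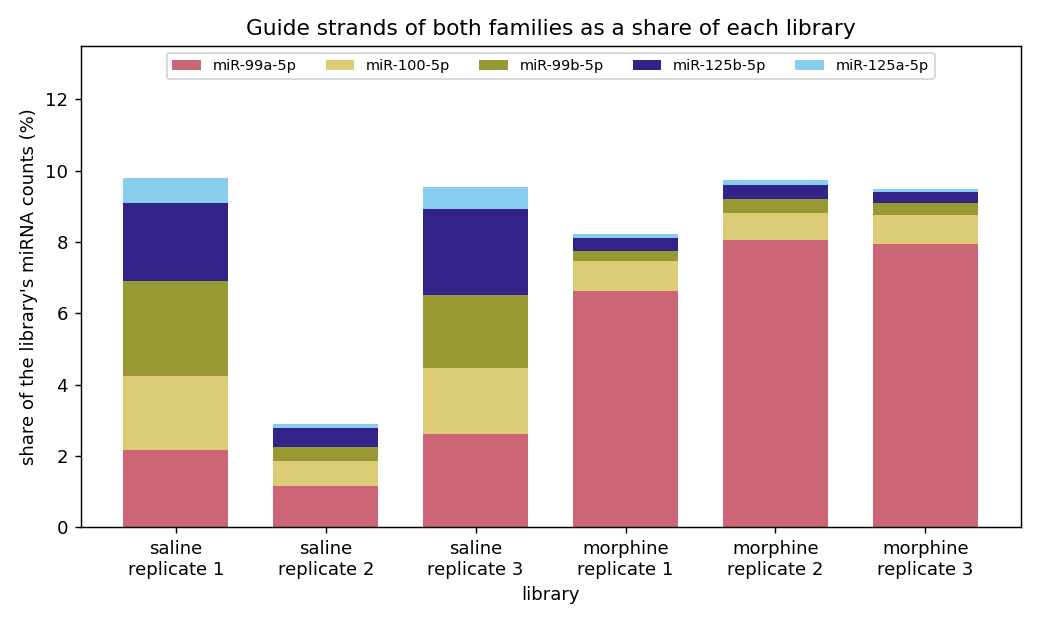
Share of each library's miRNA counts (%) taken by the 5 guide strands, stacked, for the 3 saline and 3 morphine libraries. miR-99a-5p takes 1.15% to 2.60% of the saline and 6.63% to 8.07% of the morphine libraries, and saline replicate 2 has the lowest total.

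Taken as shares, the 10 members together held 9.88%, 2.97% and 9.64% of each library in the saline replicates and 8.25%, 9.79% and 9.53% in the morphine replicates. As raw shares, their total therefore did not separate the groups (exact two-sided permutation test, p = 0.9), while its make-up differed. TMM divides these shares by factors of 1.31, 0.80 and 1.32 in the saline replicates and 0.918, 0.936 and 0.842 in the morphine replicates. On that scale the total was higher in every morphine library than in every saline library, which was not tested. Within the 3 miR-99/100 guides, miR-99a-5p took 31.3%, 50.8% and 40.01% in the saline replicates and 85.6%, 87.7% and 87.4% in the morphine replicates. miR-99b-5p took 29.2% ± 10.3 in the saline group and 3.70% ± 0.277 in the morphine group, and miR-100-5p 30.1% ± 1.17 and 9.41% ± 1.33 (SD, n = 3 each). The groups did not overlap for any of the 3 shares, and each difference had p = 0.1 in the exact two-sided permutation test, the smallest value that 3 libraries against 3 allow. Within the miR-125 guides, miR-125b-5p took 78.2% ± 2.29 and 76.7% ± 2.29 (SD, n = 3 each), and these shares overlapped (exact permutation test, p = 0.5).

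When the counts of the 3 miR-99/100 guides were summed, which removes the uncertainty about 1-base differences, the sum went from 43648 ± 12668 CPM to 96056 ± 12468 CPM (SD, n = 3 each). Its log2FC was 1.14 (SE 0.47) and met the criteria, with an adjusted p of 0.173 in edgeR's test. The criteria were not met without morphine replicate 2 or 3, where the log2FC values were 1.09 and 1.08. The sum of the 2 miR-125 guides had a log2FC of -1.76 (SE 0.49, adjusted p = 0.0514, edgeR) and met the criteria when each library was left out in turn. Without saline replicate 2 the log2FC was 0.94 for the miR-99/100 sum (adjusted p = 0.000188) and -2.08 for the miR-125 sum (adjusted p = 6.41e-19).

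Among the 3p arms, mostly passenger strands that are degraded after the hairpin is opened, miR-125b-2-3p from chromosome 16 was at 144, 519 and 213 CPM in saline replicates 1, 2 and 3 and at 89.8, 71.9 and 72.5 CPM in the morphine replicates. The groups did not overlap, and here saline replicate 2 was the highest library, the opposite of its place for miR-125b-5p. The log2FC was -1.90 (SE 0.53, adjusted p = 0.0376, edgeR). Without saline replicate 2 it was -1.19, and the adjusted p was 0.264, 0.146 and 0.146 without morphine replicates 1, 2 and 3.

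miR-125b-1-3p, the passenger of the chromosome 9 hairpin, was at 129, 108 and 145 CPM against 61.0, 76.9 and 92.8 CPM. All morphine libraries were lower, but the log2FC of -0.73 had a 95% interval from -1.71 to 0.26 and did not meet the criteria. Leaving out saline replicate 2 gave -0.84, with an adjusted p of 0.0216.

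miR-125a-3p was at 40.6, 16.05 and 42.5 CPM in saline replicates 1, 2 and 3 and at 14.05, 12.2 and 9.89 CPM in the morphine replicates. Its log2FC of -1.46 (SE 0.56, adjusted p = 0.132, edgeR) met the criteria. It was -1.78 without saline replicate 2 (adjusted p = 1.09e-05). The criteria were not met without saline replicate 1 or 3, at -1.19 and -1.17, nor without morphine replicate 2 or 3, at -1.43 and -1.33. miR-99b-3p, at 234 ± 71.4 CPM and 184 ± 20.9 CPM (SD, n = 3 each), overlapped between the groups and had a log2FC of -0.35 with a 95% interval from -1.32 to 0.62, and of -0.58 without saline replicate 2. miR-99a-3p, the passenger of the member that rose, had only 4, 35 and 5 counts in saline replicates 1, 2 and 3 and 9, 0 and 2 in the morphine replicates. It met the criteria at -2.19 (SE 1.04), but its groups overlapped, saline replicate 2 held most of its counts, and without that library the log2FC was -0.40. It also failed the criteria without morphine replicate 2 or 3, at -1.65 and -2.02.

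**Figure D3:**
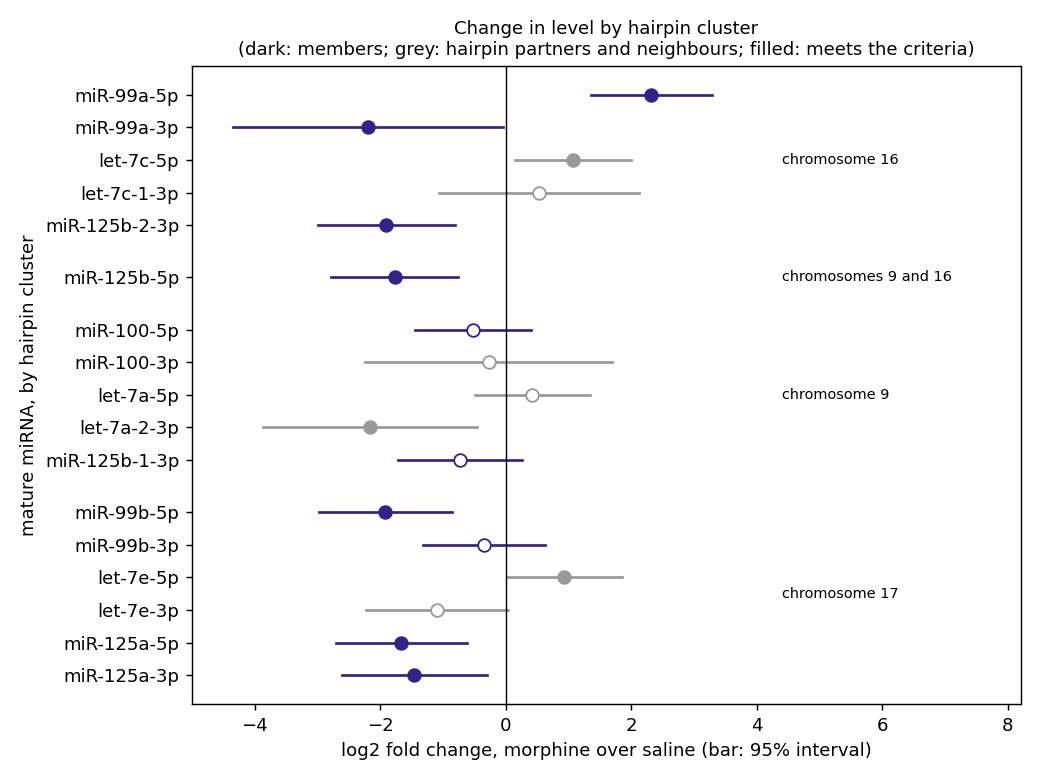
Log2FC (morphine over saline, edgeR) with its 95% interval for the members (dark) and for their hairpin partners and let-7 neighbours (grey), grouped by hairpin cluster. Filled points met the criteria. let-7a-5p is drawn with chromosome 9, although its RefSeq entry is for a hairpin on chromosome 13, and let-7c-5p, drawn with chromosome 16, also comes from chromosome 15. On chromosome 16, miR-99a-5p at 2.32 and miR-125b-2-3p at -1.90 lie on opposite sides of 0, and on chromosome 17 let-7e-5p at 0.93 lies opposite miR-99b-5p at -1.92 and miR-125a-5p at -1.66.

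Hairpins of a row can be cut from a shared transcript, so the members were also compared as count ratios inside each library, which no scaling between libraries can alter. In all, 13 ratios were tested with the exact two-sided permutation test, which cannot go below p = 0.1 here, and after Benjamini-Hochberg adjustment over the 13 no value was below 0.163. The sizes are therefore given with the overlap of the groups.

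On chromosome 16, the count of miR-99a-5p was 0.985, 2.23 and 1.07 times that of miR-125b-5p in saline replicates 1, 2 and 3 and 17.9, 19.6 and 25.02 times in the morphine replicates. The mean log2 ratio was 0.41 ± 0.65 and 4.37 ± 0.25 (SD, n = 3 each), a difference of 3.95. Part of miR-125b-5p comes from chromosome 9, and how large a part was not tested. The log2 ratio to miR-125b-2-3p, an arm specific to chromosome 16, differed by 4.02, with 6.05 ± 1.10 against 10.07 ± 0.37 (SD, n = 3 each). Against let-7c-5p, a guide from the middle hairpin of the row and from another on chromosome 15, the log2 ratio of miR-99a-5p was 1.04 ± 0.35 and 2.29 ± 0.19 (SD, n = 3 each). The groups did not overlap in any of these 3 ratios. With saline replicate 2 left out, the differences were 4.33 against miR-125b-5p, 3.39 against miR-125b-2-3p, of which that library had a high count, and 1.05 against let-7c-5p.

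On chromosome 17, the count of miR-99b-5p was 3.74, 3.07 and 3.25 times that of miR-125a-5p in saline replicates 1, 2 and 3 and 2.63, 2.57 and 3.62 times in the morphine replicates. This ratio overlapped between the groups, and it did so although saline replicate 2 had much lower counts of both. The mean log2 ratio differed by -0.20 (exact permutation test, p = 0.3), and by -0.26 without saline replicate 2. Against let-7e-5p, whose hairpin lies between the other two, miR-99b-5p was at 12.04, 2.35 and 7.59 times its count in the saline replicates and at 0.739, 1.25 and 0.958 times in the morphine replicates. The log2 ratio differed by -2.64, and by -3.32 without saline replicate 2. On chromosome 9, the log2 ratio of miR-100-5p to miR-125b-1-3p was 6.64 ± 0.30 and 6.89 ± 0.30 (SD, n = 3 each), and the groups overlapped. Against the guide miR-125b-5p, miR-100-5p was at 0.953, 1.36 and 0.773 times its count in the saline replicates. In the morphine replicates it was at 2.28, 1.85 and 2.59 times, and the groups did not overlap. This ratio to miR-125b-5p was not tested, and part of miR-125b-5p comes from another chromosome.

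Between guides that are alike, the log2 ratio of miR-99a-5p to miR-100-5p was 0.41 ± 0.33 in the saline group and 3.22 ± 0.22 in the morphine group (SD, n = 3 each). The difference was 2.81, and 2.96 without saline replicate 2. miR-99a-5p and miR-100-5p have the same length and the same 11 G or C bases of 22, and whether base composition had a part in any ratio was not tested. Against miR-99b-5p, with 14 G or C bases of 22, the log2 ratio of miR-99a-5p differed by 4.03, and by 4.52 without saline replicate 2. The log2 ratio of miR-125b-5p to miR-125a-5p differed by -0.12, and by -0.068 without saline replicate 2. The ratio of miR-125b-2-3p to miR-125b-1-3p overlapped between the groups, with 4.83 in saline replicate 2 against 0.782 to 1.47 in the other 5 libraries. Its log2 difference went from -0.96 to -0.32 when that library was left out.

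Between arms of a hairpin, miR-99b-5p was 71.02, 33.4 and 58.1 times miR-99b-3p in the saline replicates and 18.3, 19.3 and 20.8 times in the morphine replicates. The groups did not overlap, and the log2 ratio differed by -1.41, or by -1.73 without saline replicate 2. For miR-125a the 5p count was 134, 103 and 111 times the 3p count in the saline replicates and 80.5, 126 and 107 times in the morphine replicates, which overlapped. Its log2 ratio differed by -0.17, and by -0.25 without saline replicate 2. For miR-99a the log2 ratio differed by 4.45, but it rests on between 0 and 35 counts of the 3p arm and was 3.36 without saline replicate 2. In a ratio that was chosen after its values were seen and was not tested, miR-125b-5p was 116, 12.4 and 86.1 times miR-125b-2-3p in saline replicates 1, 2 and 3 and 44.9, 61.1 and 51.97 times in the morphine replicates. Saline replicate 2 was thus apart from both groups.

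**Figure D4:**
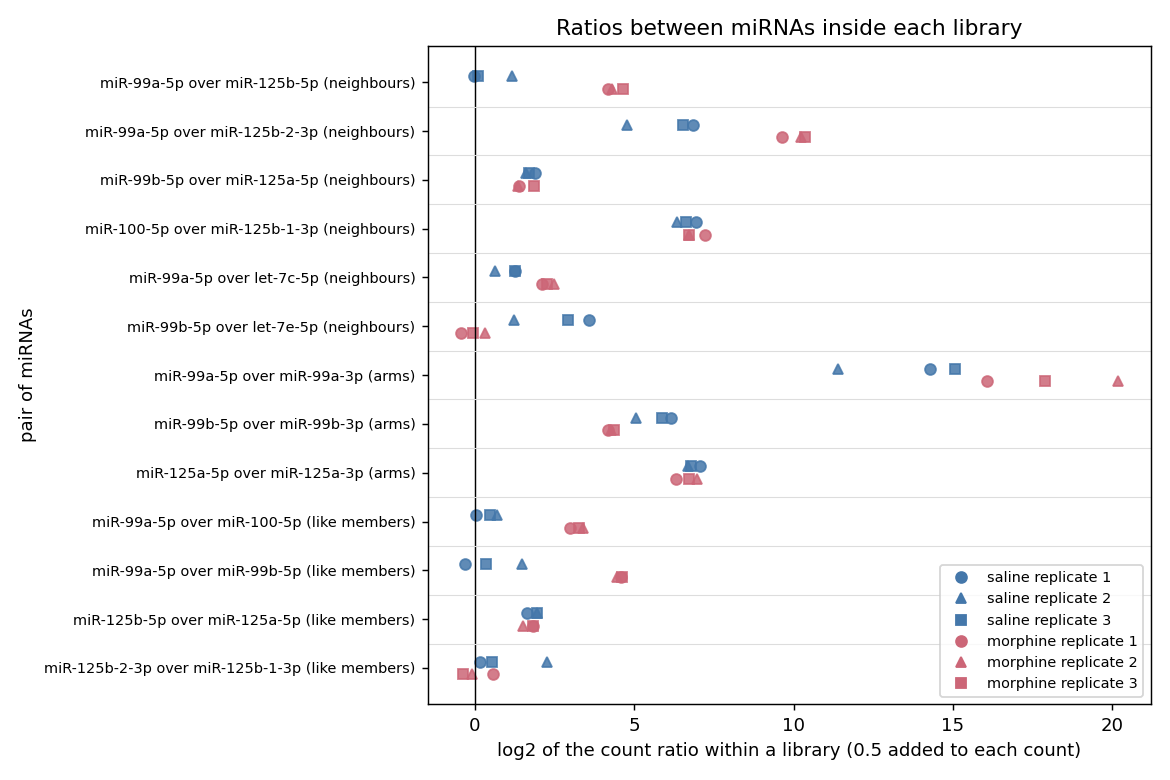
Log2 of the count ratio between miRNAs (0.5 added to each count) in each library for the 13 tested pairs, with saline in blue and morphine in red. The ratios of miR-99a-5p to the other members differ by 2.81 to 4.45 between the group means, while those of miR-99b-5p to miR-125a-5p and of miR-125b-5p to miR-125a-5p overlap.

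Of the 7 hairpin partners and let-7 neighbours of the members, 2 met the criteria as higher and 1 as lower in the morphine group, and none had an adjusted p under 0.05. let-7c-5p and let-7e-5p, guides of the let-7 family of growth repressors, were at log2FC values of 1.07 ± 0.44 and 0.93 ± 0.44 (SE), and let-7a-2-3p, with 20, 15 and 30 against 13, 2 and 1 counts, was at -2.17 ± 0.82 (SE). let-7a-5p, let-7e-3p, let-7c-1-3p and miR-100-3p, at 0.42, -1.10, 0.53 and -0.27, did not meet the criteria. The level of let-7a-5p is not specific to the row on chromosome 9, as its RefSeq entry is for Mirlet7a-1 on chromosome 13. Of 3 relatives by sequence, 0 met the criteria. They are miR-351-5p with the miR-125 seed, at -0.62, and miR-10a-5p and miR-10b-5p of the Hox clusters, which are 3 and 4 edits from miR-100-5p, at 0.25 and 0.45. miR-351-5p had only 48 to 214 counts per library, against at least 6753 for each miR-125 guide.

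The miRNAs whose pattern over the 6 libraries was closest were searched among 212 others with a mean of at least 100 CPM, by the root mean square difference of centred log2(CPM + 1). To miR-99a-5p the nearest were miR-467a-5p and miR-467b-5p, both at 0.160, which had the same counts in all 6 libraries, and miR-1983 at 0.264. To miR-125b-5p the nearest were miR-125a-5p at 0.164, miR-149-5p at 0.165 and miR-129b-5p at 0.167. These distances describe 6 libraries that fall into the groups compared, and carry no test.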

How the data were processed

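Small RNA libraries of the NAc were sequenced on an Illumina HiSeq instrument. The authors removed reads with adapters, poly-N or low quality, used Bowtie to filter reads of ribosomal, transfer and similar RNA and of repeats, and compared the remainder with miRBase. The genome build, the miRBase release and the counting of shared reads are not given in the sources used here. The authors deposited a raw read count for each of 1281 miRBase and 83 predicted miRNAs in each library. The deposited TPM values equal the count scaled to the library total and were not tested.

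Counts were TMM-normalized and tested with the quasi-likelihood test of edgeR 4.0.16 in R 4.3.3, over all 1364 miRNAs, without covariates. P-values were adjusted by the Benjamini-Hochberg method. Standard errors come from the F statistic. No columns were left unused (0). Whether a library is 1 mouse or a pool is not settled by the sources, and p-values measure only the spread between these samples. No pair of libraries agreed within sampling noise (smallest chi-square per degree of freedom 91.1). Within-library ratios used log2 with 0.5 added to each count. On simulated counts for 1275 miRNAs, 200 of them changed by a log2 fold change of 3, 99.5% of these met the criteria. Every member had a log2 fold change of smaller size, so this share does not give the sensitivity for the members.

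All members, their hairpin partners, neighbours, relatives by seed and nearest patterns are named, as are 9 lists of cell type markers. The members and lists were chosen with earlier results of these data known. Alternatives were other scalings, DESeq2 1.42.0, edgeR's exact test, filters on low counts, thinning, a replicate block and leaving out each library.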

Additional observations from a re-analysis of the deposited data

How the results depend on the processing

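All 10 members kept the sign of their log2 fold change under the alternatives that could be run for them, 17 for 9 members and 16 for miR-99a-3p, which filterByExpr removed. The calls of miR-99a-5p, miR-99b-5p, miR-125a-5p, miR-125b-5p and miR-125b-2-3p by the criteria held in all 17 alternatives, with miR-99a-5p between 1.94 and 2.52. The number of members that met the criteria, 7, ranged from 5 to 9. Over all miRNAs, 264 of 1364 met them. That number ranged from 176 of 1321 without morphine replicate 1 to 492 of 1328 without saline replicate 2. With library totals, which gave the 9 members, it was 298 of 1364. The number at an adjusted p under 0.05 was 4, where 5.21% of all miRNAs were called, the share given in brackets below. It was 1 with filterByExpr (9.43%), 1 with at least 10 counts in total (3.11%) and 1 with the replicate number as a block (2.35%). When a library was left out it was 0 to 8 (0 to 29.1%). It was 6 with DESeq2 (11.4%), library totals (11.7%) or upper quartile scaling (11.2%). With relative log expression scaling (6.89%), scaling without the members (8.14%), miRBase names only (8.59%) or thinning (9.24%) it was 5. The exact test of edgeR gave 3 (5.13%). The cause was not tested. The log2 fold change of the summed miR-99/100 guides no longer met the criteria with library totals (0.73) or upper quartile scaling (0.85), and was 0.94 to 1.39 when a library was left out. The difference in the log2 ratio of miR-125a-5p to miR-125a-3p was -0.32 to 0.0080 when a library was left out, and changed sign without morphine replicate 1. The other 12 ratios kept their direction in all settings run. With library totals the median log2 fold change of all miRNAs moved from -0.15 to -0.40, and 34.9% of calls over all miRNAs were higher, against 50.0% with TMM and 37.7% with upper quartile scaling. miR-100-5p (-0.94) and miR-125b-1-3p (-1.11) met the criteria with library totals.

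Same-numbered libraries of the groups had deviations from the group means that correlated at -0.23, -0.28 and 0.14. No pairing by number was seen, but 3 libraries per group cannot exclude it. With the replicate number as a block, 5 members met the criteria, as did 179 of all 1364 miRNAs, against 264 without the block. The 3 libraries per group, the spread among the saline libraries and the few counts of miR-99a-3p limit the precision of all values.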
